A study of Mus musculus with 4 samples.

Results

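The genes described here are 36 genes of the unfolded protein response and of the antibody secretion apparatus. They were chosen by gene symbol, from known biology and with earlier results of these data in view: sensors and targets of XBP1 and ATF6, chaperones of the endoplasmic reticulum (ER), genes of ER-associated degradation, and secretory genes of plasma cells. All 36 were found among the 55401 genes of the table, and all 36 were among the 14180 that passed the filter on low counts and were tested. They were measured by poly(A) RNA sequencing of splenic B cells of C57BL/6 mice, purified with anti-CD43 microbeads. The cells of all 4 libraries were stimulated for 36 h through CD40 (antibody at 1 µg/ml) and the B-cell receptor (anti-IgM at 10 µg/ml). One group of 2 libraries came from wild-type mice and the other group of 2 from mice labelled Adar1 cKO, a conditional knockout in B cells of the RNA-editing enzyme ADAR1. The sources used here give neither the Cre driver nor the deleted exons, nor the age and number of the mice.

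Plasma cells secrete antibody at a rate that fills the ER, and they depend on the unfolded protein response to enlarge and equip it. In this response the membrane protein IRE1 (gene Ern1) removes a short intron from the Xbp1 mRNA, ATF6 is cut in the Golgi to release a transcription factor, and the kinase PERK slows translation and favours synthesis of ATF4. XBP1 and ATF6 raise chaperones, oxidoreductases and degradation factors. B cells begin to raise this machinery when they are activated, before they secrete much antibody.

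Total counts lay between 17327480 and 19669651 per library. Values are CPM, the counts of a gene relative to the TMM-scaled library total. Changes are the log2 CPM of cKO-labelled libraries minus that of wild type, ± SE, with n = 2 libraries in each group. A gene is called when its Benjamini-Hochberg adjusted p in edgeR's quasi-likelihood test, adjusted over all 14180 genes, is under 0.05. Adar itself stood at 137 and 150.0 CPM in wild type and at 218 and 233 CPM in the libraries labelled cKO. It was higher where the label names a deletion (0.65 ± 0.063, edgeR adjusted p = 3.39e-08), so those libraries are called cKO-labelled throughout. Gene counts cannot show whether the deleted part itself is missing. The B-cell marker Cd79a had 964 and 908 CPM in wild type and 730.0 and 744 CPM in cKO-labelled libraries, and Ms4a1 had 807 and 816 CPM against 859 and 895 CPM. Cd79a, Cd79b and Cd22 were called lower, Ms4a1 and Ebf1 were not called, and all 5 were present in all 4 libraries. In bulk RNA, fewer cells of a type and less RNA per cell cannot be told apart.

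The sequence on which the response turns is the Xbp1 intron that IRE1 removes. It lies in exon 4 of transcript Xbp1-201 (GENCODE M21, GRCm38, plus strand, chr11:5524282-5524307), in coding sequence. The stretch is shown with its 26 intron bases in capitals and 20 bases on each side.
Xbp1: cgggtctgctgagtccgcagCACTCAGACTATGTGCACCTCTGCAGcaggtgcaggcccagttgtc
In none of the 4 annotated Xbp1 transcripts are the flanks joined without these bases. The stretch was found in Xbp1-201, Xbp1-203 and Xbp1-204, and Xbp1-202, annotated as a retained intron, had no match to it. The deposited counts are per gene, so the spliced share of Xbp1 was not measured here.

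The promoter element that many of these genes share is the ER stress response element (ERSE, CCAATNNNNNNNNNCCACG), which ATF6 binds together with NF-Y. RefSeq promoter windows (GRCm38.p6, 250 bases before to 50 after a start, both strands searched) were found for 30 of the 36 genes. Of those 30, 9 (30.0%) held the ERSE, against 15 (0.15%) of the 9989 tested genes with a window and 0.119% of all 32851 windows. The 9989 genes include the 30, here and for the motifs below, and the 15 include the 9. The 36 genes include known targets of ATF6, so this share is not independent of how they were chosen. The 10 matches, 2 of them in Hsp90b1, are shown in the direction of the motif, with the parts CCAAT and CCACG in capitals and 5 bases on each side.
Hspa5 (chr2:34772020-34772048, plus strand): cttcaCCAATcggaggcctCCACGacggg
Hsp90b1, farther from the start (chr10:86705633-86705661, minus strand): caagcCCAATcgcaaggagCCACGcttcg
Hsp90b1, nearer to the start (chr10:86705528-86705556, plus strand): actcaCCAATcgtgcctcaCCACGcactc
Calr (chr8:84847070-84847098, plus strand): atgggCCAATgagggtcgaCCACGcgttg
Canx (chr11:50325795-50325823, minus strand): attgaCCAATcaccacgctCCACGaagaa
Pdia6 (chr12:17266486-17266514, plus strand): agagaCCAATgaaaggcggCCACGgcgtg
Dnajc3 (chr14:118937822-118937850, plus strand): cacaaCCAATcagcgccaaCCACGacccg
Creld2 (chr15:88819515-88819543, minus strand): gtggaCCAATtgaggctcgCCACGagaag
Syvn1 (chr19:6046527-6046555, plus strand): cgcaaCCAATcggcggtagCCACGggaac
Derl3 (chr10:75893237-75893265, minus strand): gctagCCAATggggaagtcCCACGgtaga
The last base of a match lay between 26 and 194 bases before the RefSeq start. A related element, ERSE-II (ATTGGNCCACG), was found in 2 of the 30 genes (6.67%) and in 0.0901% of tested genes with a window. One of the 2 is Herpud1, shown because it is a gene that fell.
Herpud1 (chr8:94386372-94386392, plus strand): cgctgATTGGGCCACGttgga
The core of the XBP1 element, TGACGTG, was found in 3 of the 30 genes (10.0%, against 3.32% of tested genes with a window). An interferon-type motif, GAAANNGAAA, was found in 1 (3.33%, against 3.89%). Of these motifs the ERSE and ERSE-II share CCACG, so both patterns can read the same bases.

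Most of the 36 genes differed little between the genotypes, and the genes of antibody-secreting cells had the largest median change among the roles. Of the 36 genes, 13 were called higher and 2 lower in cKO-labelled libraries, 41.7% in all, where 21.7% of all tested genes were called, a comparison limited by that choice. In each direction, 36.1% were higher and 5.56% lower, against 12.2% and 9.54% of all genes. Genes of high level are called more often: of the 29 members with a mean of at least 50 CPM, a limit set after the data were seen, 12 (41.4%) were called, against 30.4% of all genes above that limit. The median change of the 36 genes was 0.06, and that of all tested genes was -0.01. Only 1 called member, Jchain, changed at least 2-fold (2.78%, against 4.88% of all genes). At an unadjusted p under 0.05, 21 members (58.3%) differed, against 32.3% of all genes. In 27 of the 36 genes (75.0%) the libraries of the genotypes did not overlap, where 57.9% of all genes did not, with 18 of them higher and 9 lower in cKO-labelled libraries. The number of members called higher was 9 without wild-type library 2 and also 9 without cKO-labelled library 2.

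**Figure D1:**
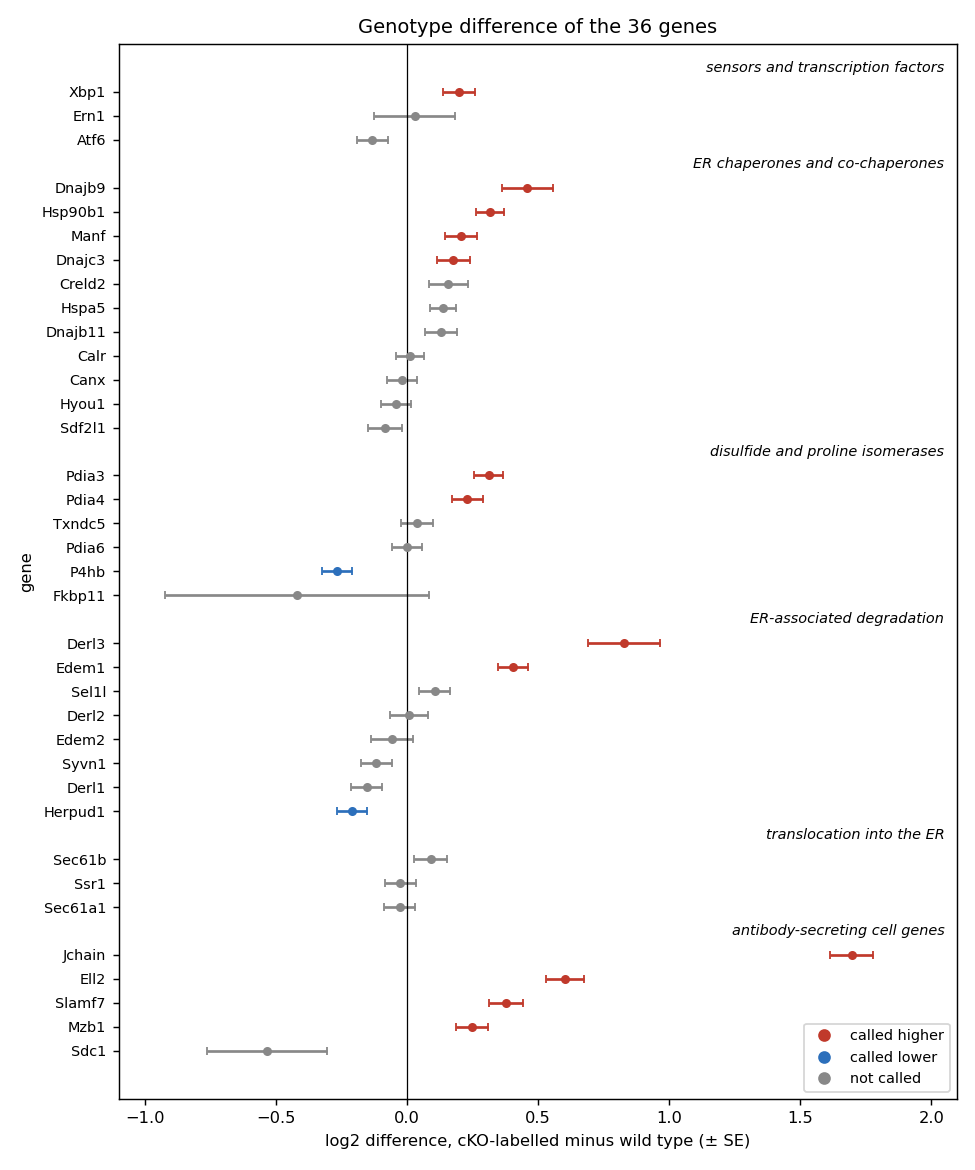
Log2 difference, cKO-labelled minus wild type, of each of the 36 genes, grouped by role; points are the fitted differences, bars are ± 1 SE, and colour marks genes called higher, called lower or not called. Jchain, at 1.70, stands apart to the right, followed by Derl3 at 0.83 and Ell2 at 0.60, while most other genes lie within 0.5 of 0.

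Jchain (ENSMUSG00000067149, chr5:88519809-88527891 on GRCm38) encodes the joining chain of polymeric IgM and IgA. It stood at 23.0 and 22.3 CPM in wild type and at 70.5 and 76.3 CPM in cKO-labelled libraries. Both cKO-labelled libraries lay far above both wild-type libraries, which were nearly equal, and the change was 1.70 ± 0.082 (3.24-fold, edgeR adjusted p = 1.36e-13). Ell2 (ENSMUSG00000001542, chr13:75706757-75772364), an elongation factor that favours the secretory form of the heavy-chain mRNA, had 53.9 and 47.9 CPM in wild type and 75.6 and 78.8 CPM in cKO-labelled libraries, a change of 0.60 ± 0.073 (1.52-fold, edgeR adjusted p = 1.11e-06). Slamf7, a surface receptor of plasma cells and other activated lymphocytes, had 81.5 and 87.3 CPM against 106 and 113 CPM, a change of 0.38 ± 0.064 (edgeR adjusted p = 0.000107). Mzb1, an ER protein that assists antibody assembly in marginal zone B cells and plasma cells, had 121 and 124 CPM against 141 and 150 CPM (0.25 ± 0.061, edgeR adjusted p = 0.0042). Both cKO-labelled libraries were above both wild-type libraries for these 4 genes.

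Sdc1, which encodes CD138, the surface marker by which plasma cells are sorted, was scarce. It had 5.80 and 6.51 CPM in wild type and 4.66 and 3.84 CPM in cKO-labelled libraries, a difference of -0.53 ± 0.23 that was not called (edgeR adjusted p = 0.106). It rested on 67 to 128 counts per library. Sdc1 lay below wild type while the other 4 genes of this role lay above it.

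Markers of other cell types moved in the same libraries. Of 6 markers of conventional dendritic cells, 4 were tested and 3 (Flt3, Zbtb46 and Itgax) were called higher. The sum of the 6 was 57.9 and 57.0 CPM in wild type and 108 and 112 CPM in cKO-labelled libraries, most of it Zbtb46 and Flt3. Itgax rested on 7 to 51 counts per library. Xcr1 was not called (0.42 ± 0.26), Clec9a had at most 0.115 CPM, and Cd209a was at 0 in every library. Plasmacytoid dendritic cells also express Jchain and Mzb1. Of their 6 markers, 2 of the 4 tested were higher and 1 lower, and the sum lay between 63.0 and 70.9 CPM in wild type and between 61.2 and 75.0 CPM in cKO-labelled libraries. Most of that sum came from Pacsin1 and Cox6a2, which went in opposite directions. Pacsin1 was called higher (38.4 and 37.2 CPM against 44.4 and 56.7 CPM) and Cox6a2 lower (30.4 and 24.5 CPM against 12.9 and 14.1 CPM). Siglech, the defining marker of plasmacytoid dendritic cells, had at most 0.802 CPM in any library. The macrophage and monocyte sum fell from 128 and 123 CPM to 45.5 and 55.0 CPM. Most of it was Adgre1, the 1 marker called (111 and 108 CPM against 30.3 and 40.3 CPM). Lyz2 (3.83 and 3.51 CPM against 4.78 and 4.24 CPM) and Cd68 (11.7 and 10.8 CPM against 8.94 and 9.74 CPM) were not called, and Csf1r had at most 1.51 CPM. The sums for T cells, NK cells, neutrophils, basophils and mast cells, and megakaryocytes did not exceed 4.50 CPM in any library. Among the tested genes of those lists Prf1 and S100a9 were called higher, and Ly6g, Fcer1a and Ppbp were at 0 in every library. The globin genes Hbb-bs and Hba-a1 were also called higher, with at most 2.12 CPM in any library. The sum of stromal and endothelial markers was 62.9 and 64.0 CPM against 77.6 and 69.5 CPM. Nearly all of it was Pecam1, which was called higher (59.8 and 61.5 CPM against 75.0 and 68.5 CPM). The other tested markers, Cdh5 and Cxcl12, were not called, at -0.90 ± 0.52 and -0.23 ± 0.56. The part of such cells in the changes of the 36 genes was not tested.

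Among the sensors, Xbp1 rose slightly and the other two were not called. Xbp1 (ENSMUSG00000020484, chr11:5520659-5525893) had 129 and 118 CPM in wild type and 139 and 144 CPM in cKO-labelled libraries. The groups did not overlap, and the change was 0.20 ± 0.062 (1.15-fold, edgeR adjusted p = 0.0244). That call was lost without wild-type library 2 (0.13, edgeR adjusted p = 0.318), without cKO-labelled library 2 (0.17, edgeR adjusted p = 0.0958) and with DESeq2 (adjusted p = 0.0912). Over the alternatives its adjusted p ran from 0.00347 to 0.318. Ern1, which encodes IRE1, was scarce in all libraries and its groups overlapped, with 11.5 and 15.2 CPM against 14.99 and 12.4 CPM (0.03 ± 0.16). Atf6 had 138 and 143 CPM against 132 and 125 CPM, a difference of -0.13 ± 0.060 that was not called (edgeR adjusted p = 0.127), although it was called lower once each library's GC trend was removed (adjusted p = 0.0386, from 0.0386 to 0.412 over the alternatives).

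**Figure D2:**
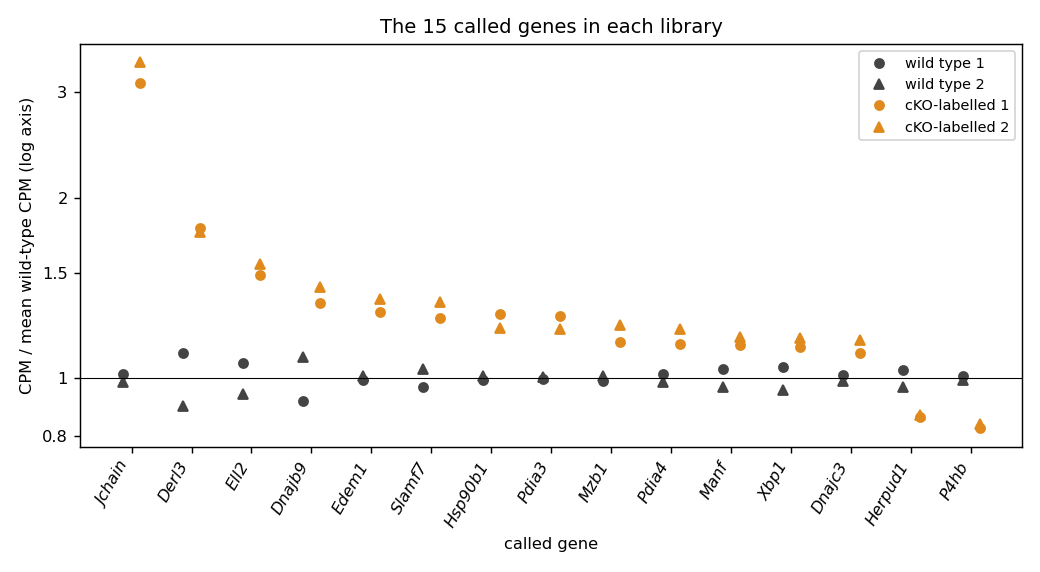
CPM of the 15 called genes in each library, divided by the gene's mean wild-type CPM and drawn on a log axis; grey marks wild type, orange marks cKO-labelled libraries, circles are library 1 and triangles library 2. For each gene the 2 cKO-labelled points lie on 1 side of the 2 wild-type points, with 13 genes above and Herpud1 and P4hb below.

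Chaperones and co-chaperones of the ER lumen rose in part. Of 11 genes, 4 were called higher (36.4%, where 12.2% of all genes were) and 0 lower (where 9.54% were). The other 7 were not called, and the median was 0.14. Hsp90b1, the ER member of the HSP90 family (GRP94), which folds Toll-like receptors and integrins, had 821 and 833 CPM in wild type and 1059 and 1003 CPM in cKO-labelled libraries. Its change was 0.32 ± 0.053 (1.25-fold, edgeR adjusted p = 9.29e-05). Dnajb9, a co-chaperone that restrains IRE1 and serves degradation, had 25.4 and 30.1 CPM against 37.0 and 39.4 CPM (0.46 ± 0.099, edgeR adjusted p = 0.00132). Both genes were higher in each cKO-labelled library than in either wild-type library.

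Manf, a secreted factor induced by ER stress, had 123 and 114 CPM in wild type and 135 and 139 CPM in cKO-labelled libraries (0.21 ± 0.061, edgeR adjusted p = 0.0167). It overlaps Rbm15b on the same strand and Dcaf1 on the opposite strand, so its reads may be shared. Dnajc3, a co-chaperone of BiP also known as an inhibitor of PERK, had 93.0 and 90.8 CPM against 101 and 107 CPM (0.18 ± 0.062, edgeR adjusted p = 0.0442). These are small differences at the edge of the test. The call of Manf was lost without wild-type library 2 (edgeR adjusted p = 0.227), without cKO-labelled library 2 (0.0668) and with DESeq2 (0.0674), and its lowest adjusted p over the alternatives was 0.00599. The call of Dnajc3 was lost without wild-type library 1 (edgeR adjusted p = 0.13), wild-type library 2 (0.245) or cKO-labelled library 2 (0.201). It was also lost without the filter on low counts, after removal of the GC trend and with DESeq2, with adjusted p-values from 0.0297 to 0.249 over the alternatives.

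Hspa5 (ENSMUSG00000026864, chr2:34771970-34777547), which encodes BiP, the main chaperone and the usual measure of ER stress, was close to the threshold. It had 1060 and 1059 CPM in wild type and 1167 and 1162 CPM in cKO-labelled libraries. Each pair of libraries was nearly equal and the groups did not overlap, but the change was only 0.14 ± 0.050 (1.10-fold, edgeR adjusted p = 0.0575). It was called with DESeq2, with a replicate block and without ribosomal RNA rows, with adjusted p-values from 0.0267 to 0.273 over the alternatives. Dnajb11, a BiP co-chaperone, had 129 and 127 CPM against 143 and 137 CPM (0.13 ± 0.060), and Creld2 had 51.9 and 57.5 CPM against 59.0 and 63.3 CPM (0.16 ± 0.075). Neither was called, and Creld2 was called once the GC trend was removed (adjusted p = 0.0275, from 0.0275 to 0.669 over the alternatives). The lectin chaperones Calr and Canx, which bind glycans of folding proteins, had overlapping groups, with differences of 0.01 ± 0.052 and -0.02 ± 0.057. Calr stood at 1009 and 992 CPM against 985 and 1031 CPM, and Canx at 519 and 518 CPM against 526 and 497 CPM. Hyou1, an exchange factor for BiP, and Sdf2l1, a partner of BiP, had differences of -0.04 ± 0.058 and -0.08 ± 0.063. Hyou1 had 203 and 205 CPM against 202 and 194 CPM, and Sdf2l1 had 81.7 and 80.8 CPM against 75.5 and 77.8 CPM. Both were lower in each cKO-labelled library than in either wild-type library, by less than the test could call.

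The disulfide isomerases went in both directions. Of 6 genes in this role, 2 were called higher (33.3%, where 12.2% of all genes were) and 1 lower (16.7%, where 9.54% were). Pdia3 (ERp57), the partner of calnexin and calreticulin and a part of the MHC class I loading complex, had 446 and 451 CPM in wild type and 571 and 543 CPM in cKO-labelled libraries (0.31 ± 0.057, 1.24-fold, edgeR adjusted p = 0.000244). Pdia4 (ERp72) had 293 and 284 CPM against 328 and 348 CPM (0.23 ± 0.058, edgeR adjusted p = 0.00548). The call of Pdia4 was lost without wild-type library 2 (edgeR adjusted p = 0.0605) and without cKO-labelled library 2 (0.0637), and its lowest adjusted p over the alternatives was 0.00115. P4hb (ENSMUSG00000025130, chr11:120560298-120573253), which encodes the classical disulfide isomerase PDI, went the other way. It had 444 and 437 CPM in wild type and 363 and 369 CPM in cKO-labelled libraries, with no overlap (-0.27 ± 0.056, 0.831-fold, edgeR adjusted p = 0.0011).

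Pdia6, an isomerase that dampens IRE1, differed by -0.0015 ± 0.057 (328 and 341 CPM against 329 and 340 CPM), with overlapping groups. Txndc5, a plasma-cell-rich isomerase, differed by 0.04 ± 0.061 (180 and 173 CPM against 175 and 188 CPM). Fkbp11, a proline isomerase of secretory cells, rested on 11 to 21 counts per library, and its difference of -0.42 ± 0.50 had the widest error of the 36 genes.

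ER-associated degradation returns misfolded proteins to the cytosol for the proteasome. Among its 8 genes, 2 were called higher, 1 lower and 5 were not called. Over all tested genes 12.2% were called higher and 9.54% lower, so 1 lower call among 8 genes is close to the share of all genes. Edem1 (ENSMUSG00000030104, chr6:108828641-108859356), a lectin that hands over misfolded glycoproteins, had 270 and 274 CPM in wild type and 351 and 369 CPM in cKO-labelled libraries (0.40 ± 0.058, 1.32-fold, edgeR adjusted p = 1.22e-05). Derl3 (ENSMUSG00000009092, chr10:75893413-75895941), the derlin found mainly in secretory cells, had 12.7 and 10.3 CPM against 20.5 and 20.2 CPM (0.83 ± 0.14, 1.77-fold, edgeR adjusted p = 7.81e-05), the second largest rise of the 36 genes. The related Edem2 and Derl2 had overlapping groups, at -0.06 ± 0.080 and 0.01 ± 0.071. Edem2 had 42.3 to 46.5 CPM and Derl2 had 55.2 to 57.0 CPM over the 4 libraries. Derl1 had 132 and 127 CPM against 114 and 118 CPM, a difference of -0.15 ± 0.060 that was not called (edgeR adjusted p = 0.0727).

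Herpud1, a scaffold of the degradation complex that both ATF6 and ATF4 can induce, fell. It had 284 and 267 CPM in wild type and 237 and 239 CPM in cKO-labelled libraries (-0.21 ± 0.059, 0.864-fold, edgeR adjusted p = 0.0112). The groups did not overlap. The call was lost without wild-type library 1 (edgeR adjusted p = 0.133) and after removal of the GC trend (0.057), and its lowest adjusted p over the alternatives was 0.00363. The ubiquitin ligase gene Syvn1 (HRD1) and its partner Sel1l were not called, at -0.12 ± 0.059 and 0.11 ± 0.059. Syvn1 had 242 and 243 CPM against 216 and 232 CPM, and Sel1l had 159 and 152 CPM against 165 and 169 CPM. The libraries do not mark strand, and Syvn1 overlaps Mrpl49, Derl2 overlaps Mis12, Pdia3 overlaps Catsper2 and Hsp90b1 overlaps 1810014B01Rik, so reads of each pair may be shared.

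The translocation genes were nearly level. Sec61a1, the channel of the translocon, Sec61b, its small subunit, and Ssr1, a translocon-associated protein, differed by -0.03 ± 0.058, 0.09 ± 0.064 and -0.03 ± 0.058. None of the 3 was called by edgeR or DESeq2, and none had an unadjusted p under 0.05. Sec61a1 lay between 220.3 and 229.8 CPM and Ssr1 between 171 and 177 CPM over the 4 libraries. Sec61b had 93.8 and 87.7 CPM in wild type and 98.8 and 94.3 CPM in cKO-labelled libraries, and was called higher once the GC trend was removed (adjusted p = 0.0359, from 0.0359 to 0.852 over the alternatives).

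Genes with an ERSE did not move as 1 group. Of the 9 members with the element, 3 (Hsp90b1, Dnajc3 and Derl3) were called higher. The other 6 (Hspa5, Creld2, Calr, Canx, Pdia6 and Syvn1) were not called. Over all 36 genes 36.1% were called higher, and over all tested genes 12.2%. The call of Dnajc3 was lost under 6 of the 11 alternatives. Hsp90b1 and Calr both carry the element, and their changes were 0.32 and 0.01. Of the other 6 tested genes with an ERSE, Xlr3b was called higher and 5 were not called.

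Levels per exonic length, in the deposited FPKM values, ran from percentile 10.3 to percentile 99.1 of the tested genes in wild type. Calr was the most abundant of the 36 genes at 346 FPKM (mean of wild type), followed by Hspa5 at 249.7 FPKM and Hsp90b1 at 205 FPKM. P4hb and Pdia3 stood at 154 and 143 FPKM in wild type. In the cKO-labelled libraries the order of this pair turned, with 128 FPKM for P4hb and 177 FPKM for Pdia3. Mzb1 was already abundant in wild type, at 101 FPKM (percentile 96.7), while Jchain stood at 8.97 FPKM (percentile 60.7) in wild type and 29.2 FPKM in cKO-labelled libraries. Ern1 (1.41 and 1.86 FPKM in wild type) and Sdc1 (1.52 and 1.71 FPKM), whose ranges overlap, and Fkbp11 (0.38 and 0.39 FPKM) were the lowest.

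**Figure D3:**
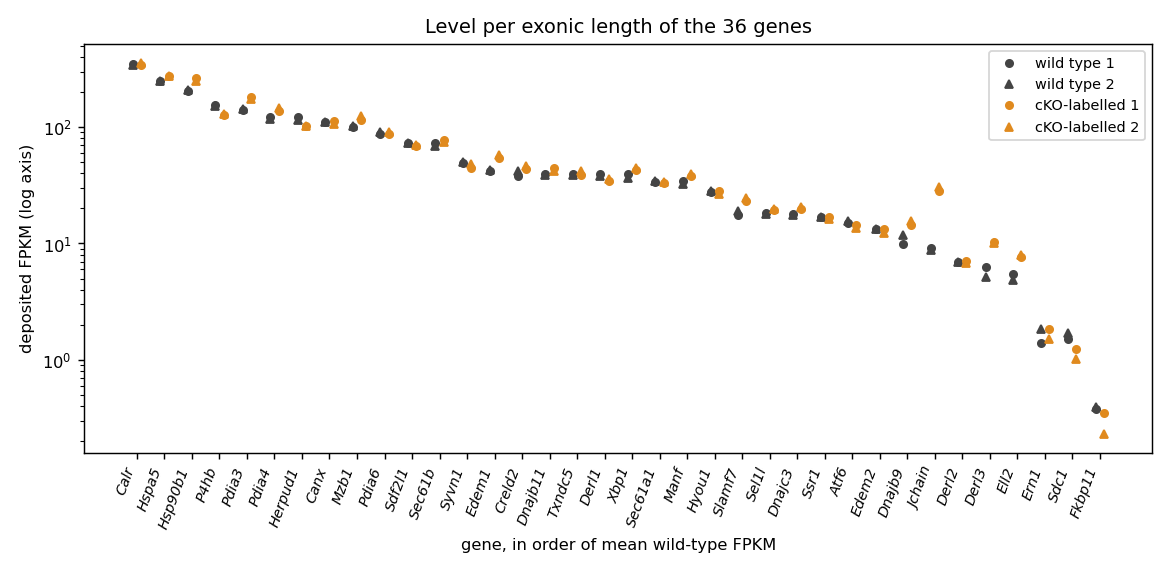
Deposited FPKM (per exonic length, log axis) of the 36 genes in each library, in order of the mean wild-type value; grey marks wild type, orange marks cKO-labelled libraries, circles are library 1 and triangles library 2. Values run from 346 for Calr to 0.385 for Fkbp11 in wild type, and Jchain shows the widest gap between genotypes.

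Summed over roles, the 11 chaperones came to 4115 and 4107 CPM in wild type and 4490 and 4449 CPM in cKO-labelled libraries. The 5 genes of antibody-secreting cells came to 286 and 288 CPM against 398 and 422 CPM. The 3 translocation genes came to 496 and 495 CPM against 495 and 492 CPM, and the 8 degradation genes to 1202 and 1174 CPM against 1207 and 1244 CPM. The 6 isomerases came to 1693 and 1686 CPM against 1766 and 1788 CPM, and the 3 sensors to 279 and 277 CPM against 286 and 282 CPM. Both cKO-labelled CPM sums were above both wild-type sums in every role except translocation. In summed FPKM the translocation genes were higher too, at 127.5 and 124.3 FPKM in cKO-labelled libraries against 123.6 and 120.1 FPKM in wild type. The degradation genes were barely apart in CPM and overlapped in summed FPKM, at 297 and 288 FPKM for wild type against 285 and 292 FPKM.

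Other genes of the same pathways were described from lists that do not include the 36 genes. The arm of PERK and ATF4 was called mostly lower: of 15 tested genes, 8 were lower (53.3%, where 9.54% of all genes were) and 1 higher (6.67%, where 12.2% were), with a median of -0.19. Ddit4, an inhibitor of mTORC1, had 152 and 138 CPM in wild type and 106 and 88.0 CPM in cKO-labelled libraries (-0.58 ± 0.075, edgeR adjusted p = 2.77e-06). Chac1, which degrades glutathione, had 52.2 and 49.0 CPM against 32.7 and 35.3 CPM (-0.57 ± 0.084, edgeR adjusted p = 1.60e-05). Atf4 itself fell from 775 and 725 CPM to 610 and 589 CPM (-0.32 ± 0.057), while Ddit3 (CHOP) differed by 0.02 ± 0.095 and Eif2ak3 (PERK) by -0.05 ± 0.082, neither of them called. Ppp1r15a (GADD34), which reverses the PERK signal, rose by 0.27 ± 0.082 (edgeR adjusted p = 0.0197), a call lost without cKO-labelled library 1 and with DESeq2. The number called lower was 5 without cKO-labelled library 2 and also 5 after removal of the GC trend.

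Genes of N-glycosylation, here the addition of glycans in the ER and their trimming there, were called in 1 direction. Of 30 tested genes, 10 were lower (33.3%, where 9.54% of all genes were) and 0 higher, with a median of -0.13. Mogs, the glucosidase that first trims the glycan, had 160 and 165 CPM in wild type and 133 and 139 CPM in cKO-labelled libraries (-0.26 ± 0.059, edgeR adjusted p = 0.00243). Krtcap2, a subunit of the oligosaccharyltransferase, had 61.9 and 52.5 CPM against 44.3 and 45.6 CPM (-0.35 ± 0.082, edgeR adjusted p = 0.00343). Krtcap2 (chr3:89245966-89249906) and Dpm3 (chr3:89259358-89267079), which was also called lower, lie close to Adar (chr3:89715022-89753446). The part of that position in their changes was not tested. The number called lower was 3 without wild-type library 1, 5 without wild-type library 2, 4 without cKO-labelled library 1 and 6 with DESeq2, and no gene was called higher under any of the 11 alternatives. At an unadjusted p under 0.05, 0 were higher and 13 lower.

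The rest of the folding, transport and degradation machinery was called in 0.0% to 22.2% of each list's tested genes, not above the 21.7% of all genes except in the list of folding enzymes, which was near it. Among 18 other ER folding enzymes, 1 was higher (Dnajc10, a reductase that serves degradation, 0.27 ± 0.064, not called without wild-type library 2) and 3 were lower (Erp29 first, -0.27 ± 0.060). Among 22 other genes of the translocon, signal recognition particle and signal peptidase, 3 were higher (13.6%, where 12.2% of all genes were) and 1 lower. Sec11c, a catalytic subunit of the signal peptidase, rose from 134 and 132 CPM to 179 and 172 CPM (0.40 ± 0.059, edgeR adjusted p = 1.68e-05), while Srprb, a subunit of the receptor for the particle, fell (-0.22 ± 0.066). Those 3 became 1 without wild-type library 2, without either cKO-labelled library and with DESeq2. Among 26 genes of ER to Golgi transport, 1 was higher (Arf4, 0.21 ± 0.065) and 1 lower (Ergic3, -0.24 ± 0.065), and none was called with DESeq2 or after removal of the GC trend. With a replicate block 2 were higher and 2 lower, and without the filter on low counts 1 was higher and 2 lower. The number lower was 3 without cKO-labelled library 2, and the number higher was 0 without wild-type library 1 or cKO-labelled library 1. Of 19 other degradation genes 0 were called by edgeR and by DESeq2, while at an unadjusted p under 0.05 the numbers were 5 higher and 2 lower. With a replicate block 2 of these genes were called higher and 1 lower, with the GC trend taken out 1 higher and 1 lower, and without cKO-labelled library 1 only 1, higher. Vcp, the most abundant of them, differed by 0.04 ± 0.056. Of 9 tested sensors, proteases and modulators, Atf6b, a relative of ATF6, was lower (-0.20 ± 0.061), a call lost without wild-type library 2, without cKO-labelled library 2, after removal of the GC trend and with DESeq2.

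**Figure D4:**
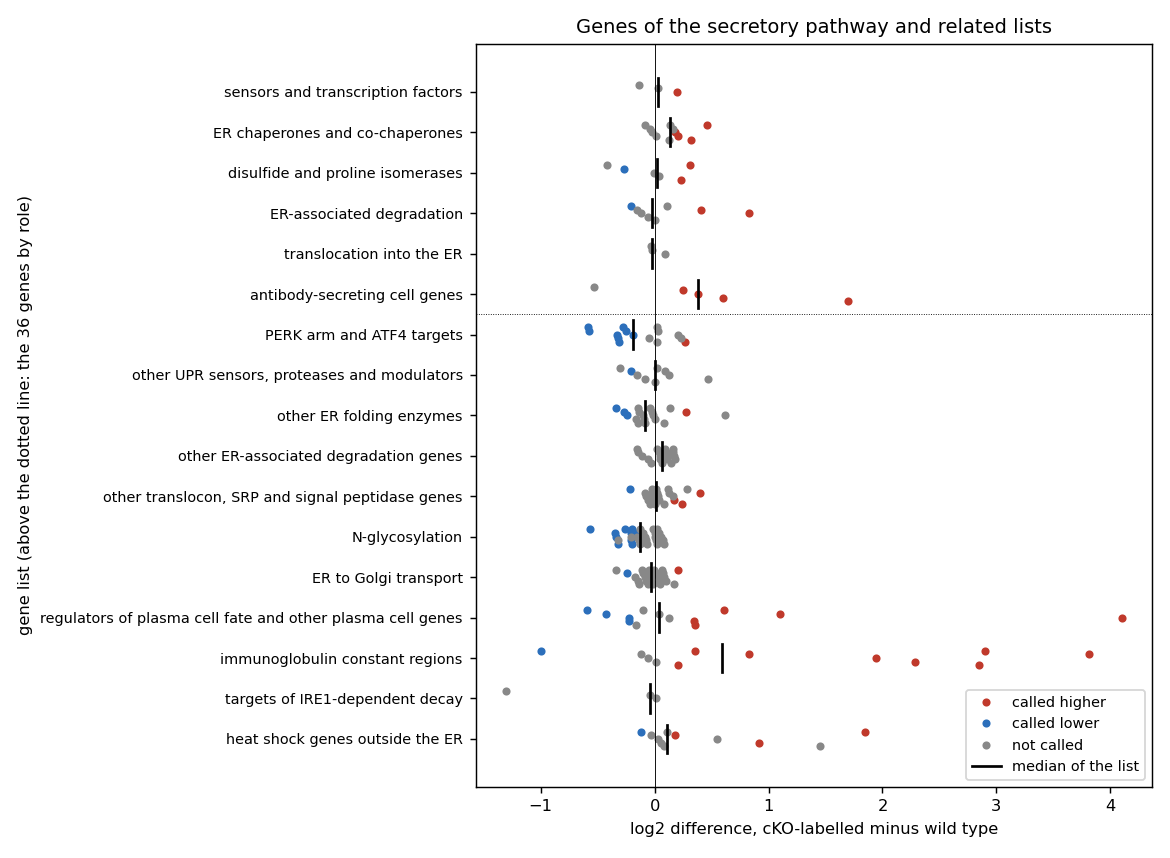
Log2 difference, cKO-labelled minus wild type, of every tested gene in each list, with the 36 genes by role above the dotted line and other lists below it; each point is a gene, red is called higher, blue called lower, grey not called, and the black bar is the list's median. The medians of the PERK and N-glycosylation lists lie below 0, at -0.19 and -0.13, and that of the antibody-secreting cell genes lies at 0.38.

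Targets that IRE1 degrades in other cells were too few to describe, with 3 of 6 tested and 0 called by edgeR or DESeq2, 1 of them (Sparc) with an unadjusted p under 0.05. Bloc1s1, the most abundant by FPKM, differed by -0.04 ± 0.12. In the list of 11 tested heat shock genes outside the ER, 9 were cytosolic, and Hspd1 and Hspe1 mitochondrial. Of the 11, 3 were called higher (27.3%, where 12.2% of all genes were) and 1 lower (9.09%, where 9.54% were). Hsp90aa1 rose by 0.18 ± 0.059 and Hsp90ab1 changed by -0.12 ± 0.040, and Hspb1 rose by 1.84 ± 0.58 from at most 0.356 CPM in wild type. Hspb1 rested on 5 to 23 counts per library, and Bag3, also called higher, on 27 to 79. Without wild-type library 1 the number called higher was 0, and it was 1 without cKO-labelled library 1 and with DESeq2.

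The regulators of plasma cell fate and the antibody genes also differed. Of 13 tested regulators and other plasma cell genes, 5 were higher (38.5%) and 4 lower (30.8%), where 12.2% and 9.54% of all genes were. Prdm1 (BLIMP1), which drives plasma cell fate and raises Xbp1, had 13.2 and 12.0 CPM in wild type and 27.6 and 26.2 CPM in cKO-labelled libraries (1.10 ± 0.12, edgeR adjusted p = 2.45e-07). Ly6c2, a surface protein of plasma cells and other leukocytes that interferon induces, rose from 2.21 and 1.68 CPM to 34.6 and 31.7 CPM (4.10 ± 0.17). Bach2, which holds B cells back from that fate, fell from 146 and 164 CPM to 107 and 123 CPM (-0.43 ± 0.070, edgeR adjusted p = 6.83e-05). Irf4 differed by 0.04 ± 0.057. Tnfrsf17 (BCMA), a marker of mature plasma cells, had at most 0.172 CPM in any library and was not tested.

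Of 12 immunoglobulin constant regions, 8 were higher (66.7%, where 12.2% of all genes were) and 1 lower. Ighg2b had 12.9 and 11.1 CPM in wild type and 80.6 and 92.2 CPM in cKO-labelled libraries (2.85 ± 0.096), and Ighg2c had 3.37 and 3.86 CPM against 41.0 and 61.1 CPM (3.81 ± 0.17). Ighd fell from 290 and 292 CPM to 146 and 146 CPM (-0.99 ± 0.058). Ighm, the most abundant heavy chain, had 3274 and 3140 CPM against 3611 and 3789 CPM (0.21 ± 0.043), and Igkc, the main light chain, differed by 0.01 ± 0.066 with overlapping groups.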

How the data were processed

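Poly(A) RNA of 4 libraries was sequenced, 2 from wild-type mice and 2 labelled Adar1 cKO. Per the submitters' processing notes, the build was GRCm38 and the tools were HTSeq 0.6.1, HISAT2 2.0.1, cutadapt 1.9.1 and bcl2fastq 2.17.1.14. The sources used here give neither settings nor an annotation release. Raw counts per gene were deposited. The deposited FPKM values, which the authors scaled by exonic length and library total, lay within 0.005 of values recomputed from those counts and were used for levels between genes. The exonic length is another deposited column.

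Counts were fitted with edgeR 4.0.16 (R 4.3.3): filterByExpr with a minimum count of 10 and a minimum total of 15, TMM factors, the quasi-likelihood test of genotype, and Benjamini-Hochberg adjustment over 14180 genes. A gene was called at an adjusted p under 0.05. The SE is the absolute log2 change divided by the square root of F. Total counts of 17327480 to 19669651 per library make 1 count worth 0.0509 to 0.058 CPM. No label says that the libraries are separate mice or cultures, so the spread behind each p-value may be technical.

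Alternatives were RLE factors, DESeq2 1.42.0, no filter on low counts, a replicate block, removal of each library's GC trend (GENCODE M21 transcripts, lowess span 0.3), ribosomal RNA or immunoglobulin rows left out, and each library left out in turn. The 36 genes, the pathway and marker lists and the tests were chosen with earlier results of these data known. Each called member is given in full; from each pathway list the 2 called genes of smallest adjusted p and the first of opposite direction are named, or the most abundant gene (by FPKM) where none was called. Other names were chosen after their values were seen. Promoter windows are RefSeq's on GRCm38.p6. Some marker genes and the sums that include them are not reported here.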

Additional observations from a re-analysis of the deposited data

How the results depend on the processing

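Over 11 alternatives and 36 genes, 396 changes were recomputed, of which 357 kept their direction and their side of the threshold, 16 lost the call, 6 gained one and 17 changed sign; none of those 17 was called in either fit. Hsp90b1, Dnajb9, Pdia3, P4hb, Edem1, Derl3, Mzb1, Jchain, Slamf7 and Ell2 were called the same way under all 11. With DESeq2, 1118 genes were called higher and 738 lower, against 1727 and 1353 with edgeR; the cause was not tested. With each library left out in turn, 1292 to 1469 genes were higher and 984 to 1252 lower, 9 to 13 members were higher and 1 to 2 lower, and the median of the members lay between 0.0524 and 0.099, with fewer samples in each fit. After removal of the GC trend Hyou1 stood at 0.0048, Sdf2l1 at 0.0204, Edem2 at 0.0037, Derl2 at -0.0632 and Sec61a1 at 0.0390, and 61.15% of calls were higher against 56.07%. Without immunoglobulin rows Pdia6 stood at 0.0012. With a library left out, sign changes were seen for Ern1 (-0.16 to 0.24), Calr (-0.0213 to 0.0424), Canx (-0.0627 to 0.0215), Pdia6 (-0.0347 to 0.0215), Txndc5 (-0.0158 to 0.0909), Edem2 (-0.128 to 0.0084) and Derl2 (-0.0161 to 0.0304). The replicate numbers are shared by the genotypes, but same-numbered libraries did not deviate together (correlation -0.0172 over genes). With the replicate block 1904 genes were called higher and 1594 lower, with 14 members higher, Hspa5 among them, and 2 lower. Fkbp11, Sdc1 and Ern1 rest on at most 299 counts per library and have the widest SEs of the members.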
